A study of Danio rerio with 6 samples.

Results

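Long noncoding RNA genes annotated as long intergenic noncoding RNA (lincRNA) or as antisense were examined in the tails of *prpf31*-/- zebrafish. Every gene whose biotype in the deposited count files is lincRNA or antisense was a member, except those on chromosome 16, which carries *prpf31* itself. This gave 841 lincRNA and 640 antisense genes, 1481 of the 36155 genes in the files, and left out 33 lincRNA and 32 antisense genes of chromosome 16. RNA had been taken at 36 hpf from pooled dissected tails, which include the AGM (aorta-gonad-mesonephros) and the CHT (caudal hematopoietic tissue), while the heads served for genotyping. The groups were 3 libraries of *prpf31*-/- embryos, a knockout line made with CRISPR/Cas9, and 3 libraries of *prpf31*+/+ siblings. Both came from crosses of *prpf31*+/- parents of the AB* strain, and no allele other than *prpf31* differs between them by label. Nothing in the labels says that replicate libraries stem from different clutches, so the p-values here cover the spread between these libraries and nothing more.

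By definition a lincRNA gene lies between protein-coding genes and an antisense gene runs across another gene on the opposite strand. In the files, though, 222 of the 841 lincRNA genes overlap another gene. Transcripts of both kinds are mostly made by RNA polymerase II, capped, polyadenylated and often spliced by the same spliceosome as mRNAs. Prpf31 holds the U4/U6.U5 tri-snRNP of this spliceosome together. Many of these transcripts are retained in the nucleus, several are the primary transcripts of miRNAs, and most are far less abundant than mRNAs. The best known members here are *malat1*, a nuclear RNA associated with splicing speckles in mammals, and *oip5-as1*, known as cyrano and studied for its near-perfect site for the miRNA miR-7.

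The libraries held 21809870 to 23789933 counts. *prpf31* had 475, 576 and 535 counts in mutants and 844, 850 and 854 in siblings. Spinal cord and neuron markers summed to 568 to 610 CPM (counts as a rate of the library total after TMM scaling) in mutants and 630 to 882 CPM in siblings. Only 1 of 5 was called lower, *tubb5*, with a mean of 261 CPM in mutants and 395 CPM in siblings. The others had log2 fold changes (mutant over sibling) of −0.23 (*elavl3*), −0.21 (*olig2*), 0.005 (*nkx6.1*) and −0.002 (*isl1*). Red cell markers summed to 1073 to 1322 CPM in mutants and 1640 to 1989 CPM in siblings, with 2 of 4 tested genes lower. These were the globin genes *hbae3* and *hbbe1.1*, which make up most of the sum. The others, *slc4a1a* and *gata1a*, were not called, with log2 fold changes of −0.20 and 0.26. Muscle markers, at 37420 to 44971 CPM in mutants and 39616 to 40561 CPM in siblings, included no called gene among 6. In bulk tails, fewer cells of a type and less RNA per cell cannot be told apart. The mitochondrial genome took 4.78 to 5.62% of counts in mutants and 4.19 to 4.35% in siblings.

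Most of these genes had few or no counts in the tail. No library had a single count for 258 lincRNA genes (30.7%) and 216 antisense genes (33.8%), against 2146 of 24404 protein-coding genes outside chromosome 16 (8.79%). Counts in all 6 libraries were found for 248 lincRNA and 152 antisense genes. The filter of edgeR on low counts, about 10 counts in at least 3 libraries, kept 171 lincRNA genes (20.3%), 82 antisense genes (12.8%) and 16848 protein-coding genes (69.0%). These 253 lincRNA and antisense genes are the tested members, and the main test measured differences for them alone. Members had short exonic lengths, with a median of 791 nt for lincRNA and 767.5 nt for antisense genes against 2161 nt for protein-coding genes.

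Per length, the tested members stood below the tested mRNAs. The median level over the 6 libraries was 1.75 FPKM for lincRNA genes (quartiles 0.740 and 4.61), 0.990 FPKM for antisense genes (quartiles 0.485 and 1.58) and 3.46 FPKM for protein-coding genes (quartiles 1.06 and 10.2). A level of 10 FPKM or more was reached by 26 lincRNA genes and by 1 antisense gene. The highest was BX936337.1 with 92.1 FPKM, a level that 559 of the 16848 tested protein-coding genes exceeded. *malat1* followed with 76.8 FPKM and BX000438.2, the 1 antisense gene above 10 FPKM, with 49.9 FPKM. *oip5-as1* stood at 36.6 FPKM.

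The number of members with at least 10 counts was compared first. For lincRNA genes it was 167, 170 and 180 in mutants and 172, 177 and 166 in siblings, and the groups overlapped (exact permutation test, two-sided p = 0.9, as are all such tests here). For antisense genes it was 82, 95 and 89 in mutants and 79, 77 and 80 in siblings. Each mutant library thus had more detected antisense genes than each sibling library, with an exact permutation p = 0.1, the smallest that 3 libraries against 3 allow. After thinning to 21809870 counts per library the antisense numbers were 82, 95 and 81 in mutants and 78, 77 and 80 in siblings. With 1 count as the minimum, mutants had 399, 419 and 404 lincRNA genes and siblings 390, 395 and 388 (exact permutation p = 0.1). With a minimum of 0.5 CPM the lincRNA numbers were 163, 162 and 169 in mutants and 159, 160 and 156 in siblings, also without overlap (exact permutation p = 0.1). At a minimum of 1 count the antisense numbers were 277, 293 and 280 in mutants and 260, 259 and 268 in siblings (exact permutation p = 0.1). Counts in all mutant libraries and no sibling library were found for 4 antisense, 5 lincRNA and 58 protein-coding genes. The reverse held for 2, 2 and 32. Protein-coding genes were not counted by library, so whether the rise in detection is particular to these biotypes was not tested.

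The share of all counts that fell on lincRNA genes was lower in mutants. It was 0.193, 0.180 and 0.185% in mutants and 0.222, 0.221 and 0.209% in siblings, without overlap (exact permutation p = 0.1, the smallest possible). *malat1* accounted for most of this. It took 23.3, 25.8 and 24.3% of the lincRNA counts in mutants and 33.3, 30.9 and 33.5% in siblings. Without *malat1* the lincRNA share was 0.148, 0.133 and 0.140% in mutants and 0.148, 0.152 and 0.139% in siblings, so that the groups overlapped (exact permutation p = 0.4). The antisense share was 0.0278, 0.0267 and 0.0275% in mutants and 0.0292, 0.0303 and 0.0277% in siblings (exact permutation p = 0.2). Few genes made up these shares, since 10 lincRNA genes held 63.1% of lincRNA counts and 10 antisense genes 53.5% of antisense counts.

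**Figure D1:**
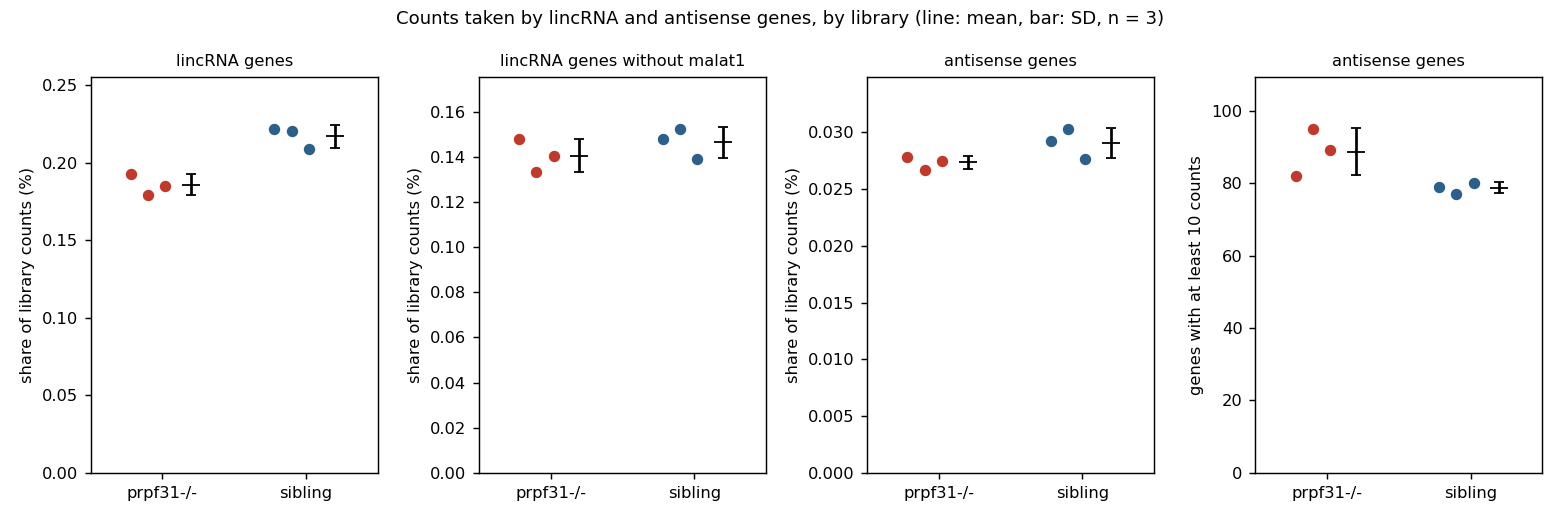
Each point is 1 library, with *prpf31*-/- on the left and siblings on the right of each panel, and the line and bar give the mean and SD of 3 libraries; the vertical axes give the share of library counts in percent or the number of genes. The lincRNA share is lower in all 3 mutant libraries (0.180 to 0.193%) than in siblings (0.209 to 0.222%), and the groups overlap once *malat1* is left out.

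Of the 171 tested lincRNA genes, 10 were higher and 8 lower in mutants at an adjusted p under 0.05 (edgeR's quasi-likelihood test, Benjamini-Hochberg over all 21876 tested genes), 10.5% in all. Of the 82 tested antisense genes, 7 were higher and 3 lower, 12.2% in all. The whole set of tested genes had 5.58% higher and 4.49% lower, together 10.1%, and among protein-coding genes 9.56% were called, so the members' shares lay near the background. The median log2 fold change (mutant over sibling throughout) was −0.06 for lincRNA genes and 0.01 for antisense genes, beside −0.0048 over all tested genes. The median absolute log2 fold change was 0.31 for lincRNA and 0.34 for antisense genes, against 0.22 over all. Among protein-coding genes it fell with level, from 0.45 under 0.5 CPM to 0.16 from 20 CPM up, and members were mostly low. In bins of mean CPM, lincRNA genes lay above coding genes in each, with 0.27 against 0.26 from 2 to 5 CPM. Antisense genes lay below coding genes from 0.5 to 1 CPM (0.367 against 0.373) and from 2 to 5 CPM (0.23 against 0.26), and above them elsewhere. Groups did not overlap in 21 lincRNA genes with mutants above and 24 with mutants below, and in 15 and 12 antisense genes, where 15.2% of all tested genes had mutants above and 15.4% mutants below. An unadjusted p under 0.05 was reached by 33 lincRNA and 23 antisense genes, and by 25.0% of all tested genes.

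**Figure D2:**
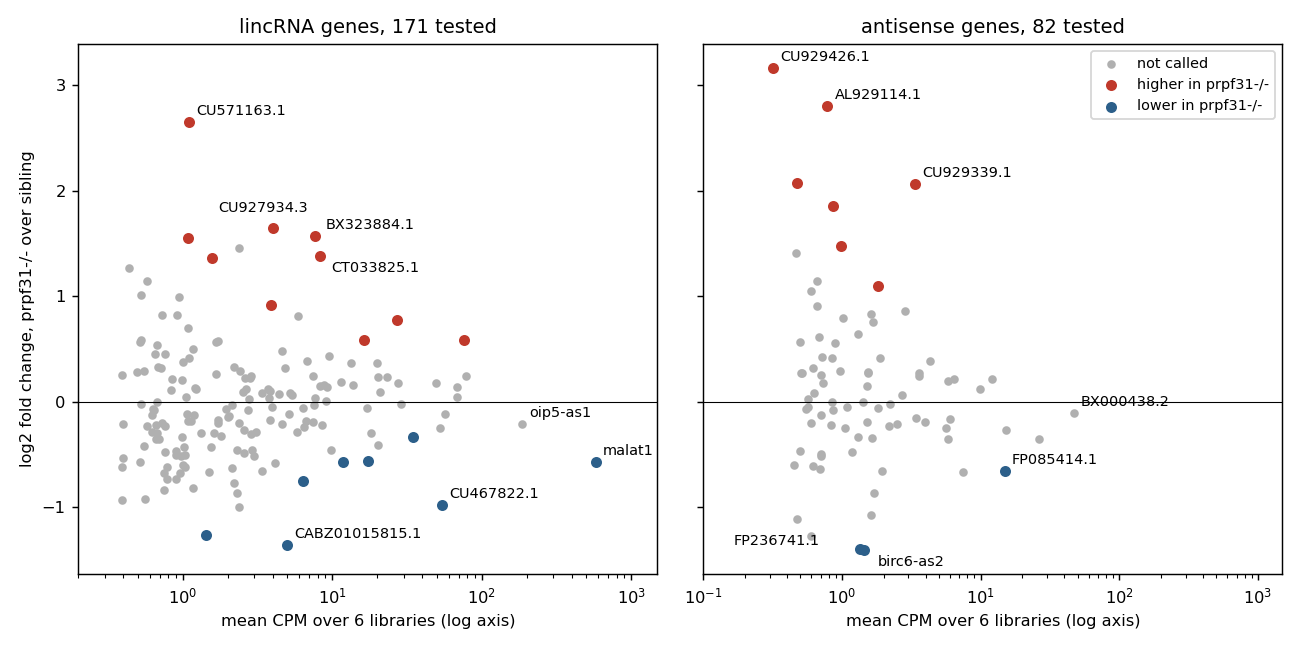
Each point is a tested gene, with its mean CPM over 6 libraries on a log axis and its log2 fold change (*prpf31*-/- over sibling) on the vertical axis; colours mark genes called higher or lower. Among lincRNA genes the calls spread over the whole range above 1 CPM, with *malat1* at the far right, while 5 of the 7 higher antisense genes lie below 1 CPM.

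The calls depended on the libraries in the fit, as they did for all genes. Leaving out mutant 3, sibling 1 or sibling 2 gave 8, 9 and 9 called lincRNA genes and 2, 2 and 4 called antisense genes, while the share called over all tested genes fell to 4.17, 4.67 and 5.01%. Of the 18 lincRNA calls, 7 were kept in each of the 6 fits that left out 1 library. Of the 10 antisense calls 1 was kept in all 6, the gene opposite *snrpb*.

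Because low genes are called less often, the shares were set beside those of protein-coding genes of like level, that is the coding share in each bin of mean CPM, weighted by the members in it. This gave 6.09% for the levels of the lincRNA genes, 4.44 percentage points under their 10.5%, and 4.34% for the levels of the antisense genes, 7.85 points under their 12.2%. With bins of FPKM in place of CPM the coding shares were 8.06 and 5.80%. These gaps depended on the libraries. The lincRNA gap was 2.30 points without mutant 3, 2.55 without sibling 1 and 2.35 without sibling 2. Coding shares at lincRNA levels fell there too, to 2.14, 2.39 and 2.62%. The ratio of lincRNA to coding share was thus 2.07, 2.07 and 1.90, against 1.73 with all libraries. The antisense gap was 0.867 points without mutant 3, 0.601 without sibling 1, 2.63 without sibling 2, 2.26 without sibling 3 and 3.48 without mutant 2. The antisense ratio was 1.62, 1.38, 2.49, 2.06 and 2.02 in these fits, against 2.81 with all libraries. None of the 51 lincRNA genes with a mean under 1 CPM was called. Of protein-coding genes, 3.17% were called under 0.5 CPM and 2.76% from 0.5 to 1 CPM. Between 1 and 2 CPM 4 of 30 lincRNA genes were called (13.3%, against 3.14% of protein-coding genes). Between 2 and 5 CPM it was 2 of 39 (5.13%, against 5.35%). Between 5 and 20 CPM 7 of 33 lincRNA genes were called (21.2%, against 9.03% of protein-coding genes), and from 20 CPM up 5 of 18 (27.8%, against 16.4%). Antisense genes were called at 5 of 37 under 1 CPM. These were 2 of 7 under 0.5 CPM (28.6%, against 3.17% of protein-coding genes). The rest were 3 of 30 from 0.5 to 1 CPM (10.0%, against 2.76%). Between 1 and 2 CPM it was 3 of 22 antisense genes (13.6%, against 3.14%). Between 2 and 5 CPM it was 1 of 11 (9.09%, against 5.35%). Between 5 and 20 CPM it was 1 of 10 (10.0%, against 9.03%), and above that 0 of 2 (against 16.4%). Among the calls under 1 CPM, AL929114.1, BX957297.1, BX005450.1 and CU929426.1 had fewer than 10 counts in every sibling library. They entered the test through the mutant libraries alone. The other, CR354383.1, had 15, 8 and 12 counts in siblings, which alone would not have passed the filter either. With a filter of 50 counts in 3 libraries 24 antisense genes remained, of which 2 were higher and 2 lower. Of the 126 tested lincRNA genes whose span overlaps no other gene, 9 were called (7.14%, against 6.19% of coding genes at their levels).

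**Figure D3:**
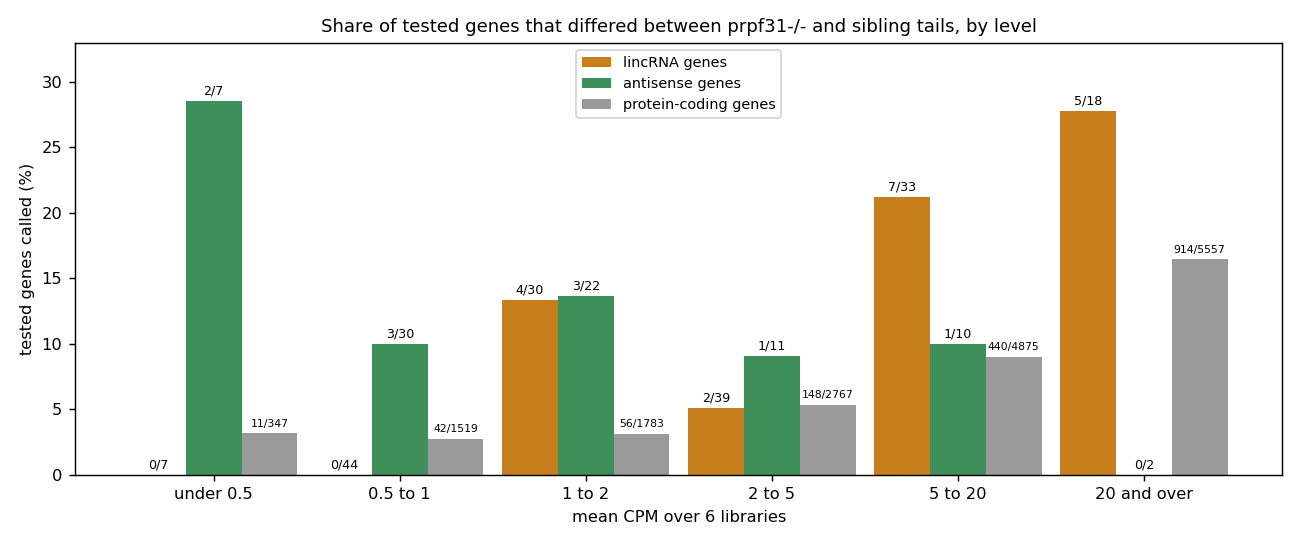
Bars give the percent of tested genes called (adjusted p under 0.05) in bins of mean CPM for lincRNA, antisense and protein-coding genes, with the called and tested numbers above each bar. The lincRNA share is 0 of 51 below 1 CPM and 5 of 18 from 20 CPM up, where the coding share is 16.4%. The coding share is 3.17% under 0.5 CPM and 2.76% from 0.5 to 1 CPM.

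The most abundant member by counts was lower in mutants. *malat1* is listed in the files as CR383676.1 (ENSDARG00000099970) on chromosome 14 of GRCz11, from 45631236 to 45638712 on the minus strand, with an exonic length of 7477 nt equal to its span. It had 483, 454 and 460 CPM in mutants and 716, 670 and 689 CPM in siblings. All mutant libraries lay well below all sibling libraries, at a log2 fold change of −0.57 (SE 0.07, edgeR adjusted p = 0.000877). The call was kept in each fit that left out 1 library, with adjusted p up to 0.0127. The gene that overlaps it on the opposite strand, CR383676.2, had no count.

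Host genes of miRNAs were a further group among the called members. Of the 19 members that hold a miRNA gene on the same strand, 12 were tested and 4 were called, 3 lower and 1 higher, where 10.1% of all tested genes were called. The 4 called hosts were the most abundant, with means of 14.8 to 54.6 CPM. At 5 to 20 CPM 9.03% of protein-coding genes were called, and from 20 CPM up 16.4%. The other hosts lay at 3.86 CPM or lower, where the bins had 2.76 to 5.35% of protein-coding genes called. The 12 hosts had a median log2 fold change of −0.22 and a range of −1.11 to 0.76. The lower end is that of CU855930.2, at a mean of 0.475 CPM, which entered the test through the sibling libraries. The miRNA genes themselves had at most 4 counts over all libraries, so the values are those of the host transcripts and not of the mature miRNAs.

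Both tested hosts of miR-9, a miRNA of neural progenitors and neurons, were lower. CU467822.1 (ENSDARG00000101584, chromosome 7 from 14353922 to 14381369), which holds *dre-mir-9-6*, had 43.1, 29.7 and 37.5 CPM in mutants and 88.1, 73.4 and 55.7 CPM in siblings. The groups did not overlap (log2 fold change −0.98, SE 0.17, edgeR adjusted p = 0.00658), and the call was kept in all 6 fits without 1 library. BX465834.1 (ENSDARG00000095715, chromosome 5 from 48110155 to 48175621), which holds *dre-mir-9-5*, had 16.6, 12.2 and 13.4 CPM in mutants and 21.2, 21.1 and 19.8 CPM in siblings. Its log2 fold change was −0.56 (SE 0.13, edgeR adjusted p = 0.0228), and the call was lost without mutant 2, mutant 3, sibling 1 or sibling 2 (adjusted p up to 0.108). The next coding gene, *mef2cb*, a transcription factor gene of muscle and heart 3718 bp away on the same strand, went the other way, with 54.8, 55.8 and 60.7 CPM in mutants and 43.6, 42.6 and 40.6 CPM in siblings (log2 fold change 0.43, edgeR adjusted p = 0.00758).

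FP085414.1 (ENSDARG00000100270, chromosome 24 from 30349981 to 30354384), an antisense gene that holds *dre-mir-137-2*, a miRNA known from brain and neurons, was also lower. It had 14.4, 9.16 and 11.0 CPM in mutants and 19.5, 19.9 and 15.1 CPM in siblings (log2 fold change −0.66, SE 0.18, edgeR adjusted p = 0.0431). The highest mutant library lay just below the lowest sibling library, and the call was lost without mutant 2, mutant 3, sibling 1 or sibling 2 (adjusted p up to 0.157). Its opposite-strand partner, the lincRNA gene FP085414.2, had a mean of 0.0073 CPM. Spinal cord and neuron markers summed to 590, 568 and 610 CPM in mutants and 882, 779 and 630 CPM in siblings, with *tubb5* the only marker called lower. The part of the markers' difference in these results was not tested.

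The host of *mir1-1* and *dre-mir-133a-2*, miRNAs of skeletal and heart muscle, was the higher one. CR589876.1 (ENSDARG00000096997, chromosome 23 from 7171653 to 7217479) had 23.2, 17.4 and 18.5 CPM in mutants and 13.4, 11.6 and 14.3 CPM in siblings. The groups did not overlap (log2 fold change 0.59, SE 0.14, edgeR adjusted p = 0.0268), and the call was lost without mutant 1, mutant 3, sibling 1 or sibling 2 (adjusted p up to 0.108). Muscle markers summed to 44971, 37420 and 42345 CPM in mutants and 40028, 39616 and 40561 CPM in siblings, with overlap. The other 8 tested hosts, all with means of 3.86 CPM or lower, did not pass the test. The largest changes among these were those of CU855930.2, host of *dre-mir-15a-2* (log2 fold change −1.11, adjusted p = 0.199), and CR388207.1, host of *dre-mir-34a* (log2 fold change 0.76, adjusted p = 0.197). CU855930.2 had 4, 12 and 4 counts in mutants and 15, 16 and 13 counts in siblings. Its mutant counts alone would not have passed the filter on low counts, so it could hardly have been called higher. The hosts of *dre-let-7f*, *dre-mir-219-2*, *dre-mir-148*, *dre-mir-193b* with *dre-mir-365-1*, *dre-mir-30e-2* and the unnamed miRNA gene CR376745.1 had log2 fold changes of −0.17, 0.10, −0.08, −0.27, −0.46 and −0.07.

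The other lower lincRNA genes were less abundant. CABZ01015815.1 (chromosome 4 from 76838989 to 76891899) had 2.76, 2.54 and 3.13 CPM in mutants and 7.03, 9.21 and 5.44 CPM in siblings, a log2 fold change of −1.36 (SE 0.23, edgeR adjusted p = 0.00505) that was kept in all 6 fits without 1 library. Inside its span and on the same strand lies CABZ01015815.3, which differed in the opposite direction, with 2.07, 2.28 and 2.40 CPM in mutants and 1.31, 0.764 and 0.540 CPM in siblings (log2 fold change 1.36, SE 0.34, edgeR adjusted p = 0.0343). How reads were divided between these overlapping genes is not stated, so both are uncertain, and the call of the inner gene was lost without mutant 2, mutant 3, sibling 2 or sibling 3 (adjusted p up to 0.123). Another gene of the locus, CABZ01015815.5, had a log2 fold change of 1.45 with an adjusted p of 0.052 from edgeR.

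CR847503.1, which runs across *wdr6* on the opposite strand, had 0.886, 0.832 and 0.815 CPM in mutants and 1.96, 2.20 and 1.93 CPM in siblings (log2 fold change −1.26, edgeR adjusted p = 0.018). *wdr6* was at 7.98, 8.67 and 9.31 CPM in mutants and 13.7, 10.6 and 10.6 CPM in siblings, below them in each library but not past the test (log2 fold change −0.42, adjusted p = 0.11). BX510923.1 had a log2 fold change of −0.75 and BX322618.1 one of −0.57. CR381618.1 was lower by the smallest amount, at 29.5, 32.0 and 31.2 CPM in mutants and 36.4, 40.3 and 39.8 CPM in siblings (log2 fold change −0.33, edgeR adjusted p = 0.036). In the current name table CR381618.1 carries the name of a coding gene, the zinc finger gene *znf469*. The calls of CR847503.1, BX510923.1 and BX322618.1 were each lost without mutant 3, sibling 1 or sibling 2 (adjusted p up to 0.0797, 0.0914 and 0.0894), and that of CR381618.1 in 5 of the 6 fits, all but the one without mutant 2 (adjusted p up to 0.137).

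Among the higher lincRNA genes, BX323884.1 had the lowest adjusted p of all members. It lies 120 bp before *rin2*, on the same strand of chromosome 13 from 27216641 to 27232573, and had 12.3, 11.7 and 10.4 CPM in mutants against 3.53, 4.18 and 3.82 CPM in siblings. The log2 fold change was 1.57 (SE 0.16, edgeR adjusted p = 0.000213), with the lowest mutant library far above the highest sibling library. *rin2*, which codes for a Rab5 regulator, had 8.17, 12.5 and 10.1 CPM in mutants and 11.4, 8.49 and 9.76 CPM in siblings, with overlap (log2 fold change 0.05, adjusted p = 0.894).

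CT033825.1 (chromosome 5 from 68891515 to 68893011) had 14.3, 11.7 and 10.2 CPM in mutants and 5.28, 4.85 and 3.69 CPM in siblings (log2 fold change 1.39, SE 0.19, edgeR adjusted p = 0.00168). The closest gene, an unnamed one 408 bp away on the opposite strand, was higher too, with 49.3, 44.1 and 49.7 CPM in mutants and 31.2, 34.0 and 32.7 CPM in siblings (log2 fold change 0.55, edgeR adjusted p = 0.00327). CU927934.3 and CU927934.1 lie 101 bp apart on the same strand of chromosome 2 and were both higher. CU927934.3 had 7.63, 5.74 and 4.76 CPM in mutants and 2.40, 2.20 and 1.17 CPM in siblings (log2 fold change 1.65, SE 0.29, edgeR adjusted p = 0.00688). CU927934.1 had 1.23, 2.19 and 1.42 CPM in mutants and 0.655, 0.719 and 0.270 CPM in siblings (log2 fold change 1.55, SE 0.42, edgeR adjusted p = 0.0447). The counts of CU927934.1 were 15, 16 and 6 in siblings, which alone would not have passed the filter on low counts. It thus entered the test through the mutant libraries and could hardly have been called lower. The calls of BX323884.1, CT033825.1 and CU927934.3 were kept in all 6 fits without 1 library, whereas that of CU927934.1 was kept only without mutant 1 (adjusted p up to 0.124).

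CU571163.1 (chromosome 4 from 1844336 to 1845156) showed the largest log2 fold change of the called lincRNA genes. It had 37, 45 and 44 counts in mutants and 1, 11 and 8 counts in siblings, which is 1.82, 1.97 and 1.89 CPM in mutants and 0.0436, 0.494 and 0.360 CPM in siblings (log2 fold change 2.65, SE 0.52, edgeR adjusted p = 0.0114). Sibling 1, with 1 count, was the lowest by far, and the call was kept in each fit without 1 library (adjusted p up to 0.0462). The sibling counts alone would not have passed the filter on low counts, so the gene entered the test through the mutant libraries. It could thus hardly have been called lower, and the fits without 1 library do not remove this limit. AL928650.3 had 5.46, 4.64 and 5.15 CPM in mutants and 2.40, 2.96 and 2.70 CPM in siblings (log2 fold change 0.92, edgeR adjusted p = 0.0152). Its call was lost without mutant 3, sibling 1 or sibling 3 (adjusted p up to 0.0712).

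The abundant lincRNA genes BX936337.1 and CR376766.2 were higher by smaller amounts. BX936337.1 (ENSDARG00000092870, chromosome 9 from 30245637 to 30248034) had 103, 79.9 and 93.8 CPM in mutants and 52.1, 68.3 and 63.1 CPM in siblings (log2 fold change 0.59, SE 0.12, edgeR adjusted p = 0.013). It shares 2325 bp of span on the same strand with si:dkey-100n23.3, whose level did not pass the test (log2 fold change 0.05), and its call was lost without mutant 3 or sibling 1 (adjusted p up to 0.0589). CR376766.2 (ENSDARG00000100443, chromosome 13 from 2352289 to 2352995) had 42.0, 27.1 and 33.3 CPM in mutants and 22.4, 18.6 and 18.7 CPM in siblings (log2 fold change 0.78, SE 0.15, edgeR adjusted p = 0.0122). The call was lost without sibling 2 (adjusted p = 0.0554). It lies 1526 bp after *klhl31*, a muscle gene, with 288, 367 and 372 CPM in mutants and 278, 257 and 286 CPM in siblings (log2 fold change 0.32, adjusted p = 0.08), and 4641 bp before *gclc*, of glutathione synthesis, which was higher (log2 fold change 0.31, edgeR adjusted p = 0.0266).

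**Figure D4:**
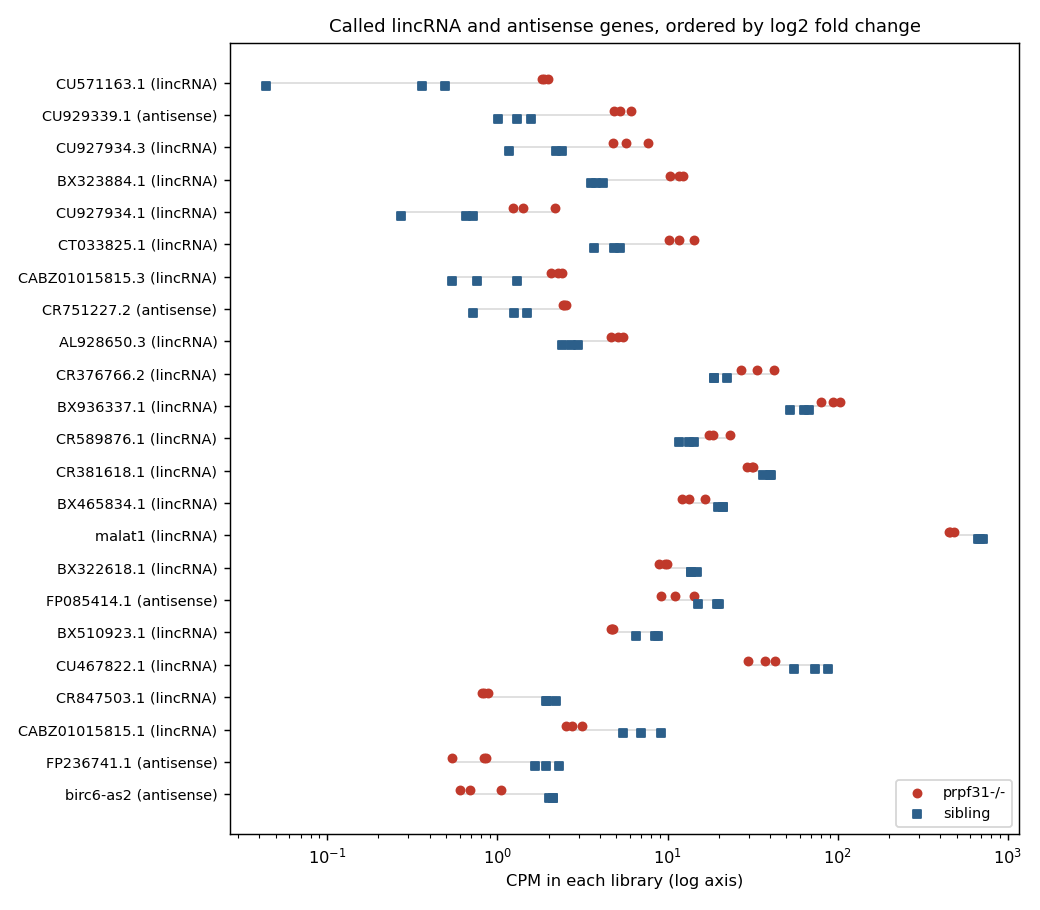
Each row is a called lincRNA or antisense gene with a mean of at least 1 CPM, ordered by log2 fold change, with red circles for the 3 *prpf31*-/- libraries, blue squares for the 3 sibling libraries and CPM on a log axis. Genes were shown only where the groups did not overlap, and sibling 1 of CU571163.1 stands lowest at 0.0436 CPM.

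Other abundant or named lincRNA genes did not pass the test. *oip5-as1* (ENSDARG00000093456, chromosome 13 from 33261131 to 33301170) had 187, 160 and 172 CPM in mutants and 193, 210 and 198 CPM in siblings. All mutant libraries lay below all sibling libraries, with a log2 fold change of −0.21 (SE 0.08, edgeR adjusted p = 0.131). Without mutant 1 it passed, with a log2 fold change of −0.28. CU659670.1 had 104, 70.1 and 83.5 CPM in mutants and 71.6, 74.5 and 70.8 CPM in siblings, and CU856520.1 had 88.3, 56.7 and 68.9 CPM in mutants and 62.1, 73.5 and 58.9 CPM in siblings, both with overlap. The members named linc.phox2bb and linc-mir30e-2 in the current name table had log2 fold changes of −0.45 (adjusted p = 0.197) and −0.46 (adjusted p = 0.257). There, 49 members carry a name that is not a clone name, 22 of them tested, and some of these are names of coding genes (*scaf8*, *mast4*, *tmem100b*, *tob2*).

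Antisense genes need a further caution. Libraries were made with a kit that keeps no strand information, so reads from an antisense gene and from the gene it overlaps cannot be told apart by strand. Of the 640 antisense genes 626 overlap a gene on the opposite strand. The same caution holds for the 139 lincRNA genes that overlap a gene on the opposite strand, CR847503.1 and *oip5-as1* among them. In 64 of the 71 tested pairs of an antisense gene and its longest tested opposite-strand partner, the partner had the higher level in CPM.

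The clearest antisense difference was at *snrpb*, which codes for the SmB/B′ core protein of the spliceosomal snRNPs. CU929339.1 (ENSDARG00000097058, chromosome 6 from 57479251 to 57480717) lies wholly inside *snrpb* on the opposite strand. It had 124, 111 and 123 counts in mutants and 23, 35 and 29 counts in siblings (log2 fold change 2.06, SE 0.24, edgeR adjusted p = 0.000546), and the call was kept in all 6 fits without 1 library. *snrpb* had 458, 367 and 399 CPM in mutants and 243, 227 and 204 CPM in siblings, also higher (log2 fold change 0.86, SE 0.10, edgeR adjusted p = 0.000596).

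AL929114.1 and CU929426.1, which entered the test through the mutant libraries alone and so could only be called higher, lie opposite genes that were higher as well. AL929114.1, across from the Notch ligand gene *dla*, had 15, 47 and 31 counts in mutants and 1, 8 and 4 counts in siblings (log2 fold change 2.80, SE 0.61, edgeR adjusted p = 0.0185). *dla* had 244, 265 and 277 CPM in mutants and 180, 182 and 150 CPM in siblings (log2 fold change 0.62, edgeR adjusted p = 0.00267). CU929426.1, opposite the mitochondrial gene *higd1a*, had 14, 13 and 11 counts in mutants and 3, 0 and 1 counts in siblings (log2 fold change 3.16, SE 0.70, edgeR adjusted p = 0.0206). *higd1a* had 90.2, 75.2 and 80.8 CPM in mutants and 55.5, 62.0 and 60.1 CPM in siblings (log2 fold change 0.47, edgeR adjusted p = 0.00911). At such low counts the size of the fold is poorly set, and both antisense calls were lost without single libraries, that of AL929114.1 without mutant 2, mutant 3, sibling 1 or sibling 3 (adjusted p up to 0.0708) and that of CU929426.1 without mutant 3, sibling 2 or sibling 3 (adjusted p up to 0.0784).

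The remaining higher antisense genes had partners that did not pass the test or passed only in part. CR751227.2 runs across the anterior *hoxb* genes of chromosome 3, from 23701915 to 23860941, and had 2.46, 2.54 and 2.45 CPM in mutants and 1.48, 1.26 and 0.719 CPM in siblings (log2 fold change 1.101, SE 0.30, edgeR adjusted p = 0.0472). This call was kept in none of the fits without 1 library (adjusted p 0.0702 to 0.136). Of the 6 *hoxb* genes it overlaps, *hoxb1a* was higher, with 8.22, 9.90 and 7.55 CPM in mutants and 3.19, 3.59 and 3.55 CPM in siblings (log2 fold change 1.31, edgeR adjusted p = 0.00144), as was *hoxb2a* (log2 fold change 0.57, edgeR adjusted p = 0.0447), whereas *hoxb3a*, *hoxb4a*, *hoxb5a* and *hoxb6a* did not pass, with log2 fold changes of 0.06, 0.06, −0.21 and 0.31. BX957297.1, opposite the apelin receptor gene *aplnr2*, had 31, 35 and 24 counts in mutants and 8, 9 and 8 counts in siblings (log2 fold change 1.86, edgeR adjusted p = 0.0106), with *aplnr2* at a log2 fold change of −0.25 (adjusted p = 0.326). BX957297.1 also shares 3160 bp of span on the same strand with *syt13*, and how reads were divided between them is not stated. *syt13* had 8.66, 9.07 and 8.41 CPM in mutants and 6.76, 6.65 and 5.84 CPM in siblings. It lay above siblings in each mutant library but did not pass the test (log2 fold change 0.44, edgeR adjusted p = 0.0878). The call of BX957297.1 was lost without sibling 1 (adjusted p = 0.0533). CR354383.1 and BX005450.1 had log2 fold changes of 1.47 and 2.07, each kept in 1 of the 6 fits without 1 library (adjusted p up to 0.136 and 0.124). Like BX957297.1, both entered the test through the mutant libraries and could hardly have been called lower.

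Besides FP085414.1, the lower antisense genes were *birc6-as2* and FP236741.1. *birc6-as2* (listed as BX548077.1, chromosome 17 from 22687170 to 22689640) had 0.689, 1.05 and 0.601 CPM in mutants and 2.01, 2.11 and 2.11 CPM in siblings (log2 fold change −1.40, SE 0.31, edgeR adjusted p = 0.0193). *birc6*, which codes for a ubiquitin ligase that inhibits apoptosis and which it overlaps on the opposite strand, had 11.3, 17.7 and 16.8 CPM in mutants and 14.3, 8.22 and 9.85 CPM in siblings, with overlap (log2 fold change 0.50, adjusted p = 0.198). FP236741.1, inside the tenascin gene *tnn* on the opposite strand, had 0.542, 0.832 and 0.858 CPM in mutants and 2.31, 1.93 and 1.66 CPM in siblings (log2 fold change −1.39, SE 0.31, edgeR adjusted p = 0.0216). *tnn*, far more abundant, had 776, 870 and 826 CPM in mutants and 913, 911 and 963 CPM in siblings (log2 fold change −0.17, adjusted p = 0.187). The call of *birc6-as2* was lost without mutant 3 or any 1 of the sibling libraries (adjusted p up to 0.0908), and that of FP236741.1 without mutant 3, sibling 1 or sibling 2 (adjusted p up to 0.0975).

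The most abundant antisense genes did not pass the test. BX000438.2 (ENSDARG00000098011, chromosome 15 from 30922926 to 30924032) had 49.8, 40.4 and 45.4 CPM in mutants and 45.8, 49.1 and 51.3 CPM in siblings, with overlap (log2 fold change −0.11, SE 0.09, adjusted p = 0.53). BX248324.1 had 26.1, 17.6 and 25.5 CPM in mutants and 29.3, 31.6 and 27.3 CPM in siblings, below them in each library (log2 fold change −0.35, SE 0.15, adjusted p = 0.167). FP017217.1 and CR352285.1 had log2 fold changes of −0.26 and 0.19.

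Over the 71 antisense pairs, 45 (63.4%) had log2 fold changes of the same sign in both genes. Across these pairs Pearson's r was 0.34 and Spearman's rho 0.22, a description over genes that share libraries, loci and possibly reads. The pairs include AL929114.1, BX957297.1, BX005450.1, CU929426.1 and CR354383.1, which entered the test through the mutant libraries. Their log2 fold changes were 1.47 to 3.16, and the filter had left hardly any other direction open. How far these genes set r, rho or the number of same signs was not tested. A partner was called in 10 pairs (14.1%), where 10.1% of all tested genes and 9.56% of protein-coding genes were called. Both genes were called in 3 pairs, all higher (*snrpb*, *dla* and *higd1a*), but for the antisense genes at *dla* and *higd1a* the filter on low counts had left no other direction open. For lincRNA genes and the nearest tested protein-coding gene within 5 kb, 51 of 90 pairs (56.7%) had the same sign, with r = −0.03 across pairs. In 8 of these pairs (8.89%) the coding gene was called, near the 9.56% of all tested coding genes, and in 1 both were, with opposite directions (BX465834.1 and *mef2cb*).

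**Figure D5:**
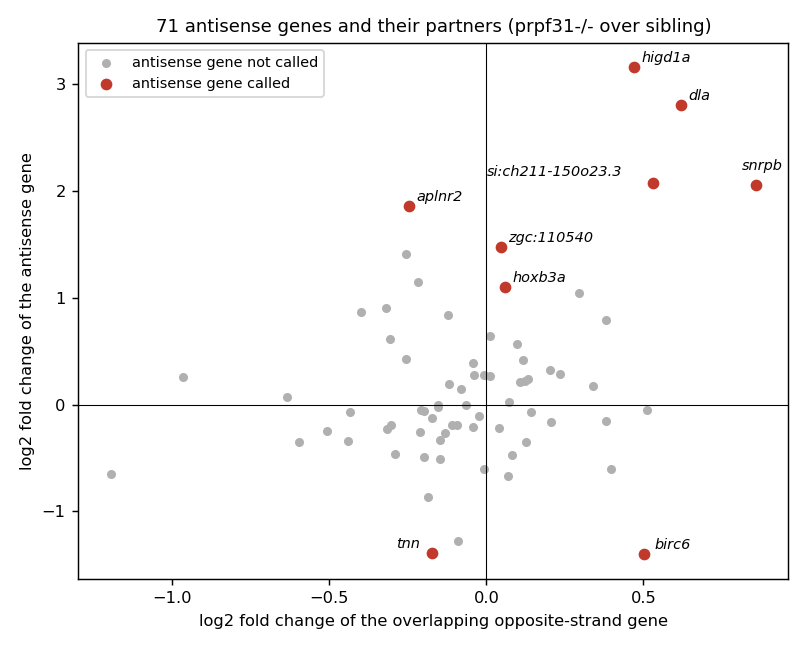
Each of the 71 points is a tested antisense gene, with the log2 fold change (*prpf31*-/- over sibling) of its longest tested opposite-strand partner on the horizontal axis and its own on the vertical axis; red points are called antisense genes, with the partner's name. The points for *snrpb*, *dla* and *higd1a* lie at the upper right, where both genes are higher in mutants, and *birc6* lies at the lower right.

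Many noncoding RNAs are degraded in the nucleus by the RNA exosome, a complex of exonucleases guided by adaptors. A list of 26 symbols of exosome and adaptor genes matched 23 gene entries, with more than 1 for *exosc3*. Of these entries 22 were tested, and 1 was higher and 0 lower (4.55%, against 10.1% of all tested genes). *rbm7*, which codes for the RNA-binding subunit of the nuclear exosome targeting complex, had 34.9, 31.6 and 39.3 CPM in mutants and 26.5, 27.7 and 27.5 CPM in siblings (log2 fold change 0.37). No gene of the list was higher with limma in any of 3 forms or in 5 of the 6 fits without 1 library, and 2 were higher without mutant 2. The helicase gene *mtrex* had 42.7, 43.8 and 42.0 CPM in mutants and 49.7, 47.2 and 49.7 CPM in siblings and did not pass the test. The median log2 fold change of the list was −0.03, beside −0.0048 over all tested genes.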

How the data were processed

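The study prepared RNA-seq libraries from tails at 36 hpf with a kit that does not mark strand. The submitters' processing notes name CASAVA 1.8, HISAT2 2.0.5, the GRCz11 genome and featureCounts 1.5.0-p3. The authors deposited counts per gene as whole numbers for each library. The deposited FPKM were computed by the authors from these counts, gene length and a total constant within each library. The annotation release and the treatment of reads that map to several or overlapping genes are not given in the sources used here.

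The main test was that of edgeR 4.0.16 under R 4.3.3 (filterByExpr, TMM factors, quasi-likelihood test of mutants against siblings, Benjamini-Hochberg adjusted p under 0.05 over 21876 genes), after the same script was tested on simulated data. CPM are counts scaled to the TMM-normalized library total, and the biological coefficient of variation was 15.5%. The SE of a log2 fold change was derived from the test, as its absolute value divided by the square root of the F statistic. Values with 1 number per library were compared by exact permutation tests. Genes were named where they were called with a mean of at least 1 CPM and no overlap of groups (up to 12 per direction), were among the 5 highest in FPKM, had a name other than a clone name, hosted a small RNA, or were partners of these. Antisense genes called under 1 CPM were added after their values were seen. The members, lists and tests were chosen with earlier results of these data known. Current names, found for 1403 of 1481 members, came from a table of gene names. Same-numbered libraries did not deviate together (r = −0.073, −0.12 and −0.041), and the main fit did not pair them. This does not exclude that they share a clutch or a batch. Alternatives were DESeq2 1.42.0, limma 3.58.1 on log2(FPKM + 1) and log2(FPKM + 0.1), other factors and filters, a replicate block, a minimum absolute log2 fold change of 1, members that overlap no gene, and leaving out each library.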

Additional observations from a re-analysis of the deposited data

How the results depend on the processing

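Directions of the named genes did not reverse in any alternative in which they were tested. The number of lincRNA genes higher in mutants, 10 in the report, was 6 at a minimum absolute log2 fold change of 1 and 5 to 10 when 1 library was left out. The number of lincRNA genes lower, 8 in the report, was 5 with limma on log2(FPKM + 1) without a filter, 2 at a minimum absolute log2 fold change of 1, 2 among members that overlap no other gene, and 3 to 8 without 1 library. The number of antisense genes higher, 7 in the report, was 2 with at least 50 counts in 3 libraries, 0 among members that overlap no other gene, of which only 2 were tested, and 2 to 5 without 1 library. The number of antisense genes lower, 3 in the report, was 0 among those 2 genes and 0 to 5 without 1 library. The share of antisense genes called was 2.95 percentage points below coding genes of like level among those 2 genes (a difference of −2.95). *rbm7*, the 1 exosome or adaptor gene higher, was not called (0 genes) with limma in any of the 3 forms or at a minimum absolute log2 fold change of 1, and 0 to 2 genes of this list were higher without 1 library.

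Nothing in the labels says whether same-numbered libraries share a clutch or a batch. With the replicate block, 7 lincRNA genes were higher and 3 lower, 3 antisense genes were higher and 0 lower, and 0 exosome and adaptor genes were higher, while among all genes 698 were higher and 455 lower. The gaps to coding genes of like level were then 3.05 percentage points for lincRNA and 1.77 for antisense genes.

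The difference in the lincRNA share of counts (mutant minus sibling) turned to 0.000399 percentage points among members that overlap no other gene, which leaves out *malat1*. That in the antisense share turned to 6.07e-05 percentage points (exact permutation p = 0.3), but only 12 antisense genes overlap no other gene. Their mean share was 0.000358% in mutants and 0.000297% in siblings, beside 0.0273 and 0.0291% for all antisense genes. The difference in lincRNA genes detected was 0.667 in the report, −2.67 after thinning and −3.17 to 3.33 without 1 library (−3.17 without mutant 3, −2.17 without sibling 3). With a minimum of 1 count or of 0.5 CPM it was 16.3 and 6.33, higher in mutants without overlap between groups. Most members had too few counts for the main test, and for these a difference was hardly detectable at this depth. Without the filter, 583 lincRNA and 424 antisense genes were fitted. Of these, 21 lincRNA genes (3.60%) and 12 antisense genes (2.83%) were called, against 7.46% of all genes. All 18 and 10 calls of the main fit were among them.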
